A study of Mus musculus with 24 samples.

Results

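Gene expression in pre-granulosa cells, the supporting cells of the fetal ovary, was compared between E11.5 and E12.5 (E, embryonic day) in the mouse. The comparison takes the 3 XX libraries labelled E12.5 against the 3 XX libraries labelled E11.5, which are 6 of the 24 libraries of the series, and runs across all 32040 genes listed in the deposited table. The series measured polyadenylated RNA of sorted supporting cells in XX and XY embryos at these stages and at E13.5 and E15.5, with 3 libraries in each of its 8 groups. Both XX groups came from a transgenic line, Tg(Enh8-mCherry), whose mCherry-positive gonad cells were isolated by fluorescence-activated cell sorting, with about 40000 cells per library. The labels name the element that drives the reporter as Enh8 and give no other agent or allele for these embryos. The XY groups, used here only for the difference between the sexes, came from another line, SOX9-IRES-GFP, sorted for GFP. The labels do not say whether the 3 libraries of a group came from separate litters, so p values measure the spread between these libraries, which may be technical.

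Before sex determination, the supporting cells of XX and XY gonads share a precursor. In XX gonads these cells become pre-granulosa cells, which later surround the oocytes. RSPO1 and WNT4 act through beta-catenin in this step, and the transcription factor FOXL2 and the activin-binding protein follistatin are known markers of the fate. In XY gonads SRY and SOX9 turn the same precursor into Sertoli cells. Pre-granulosa cells of this age are known to leave the cell cycle, while Sertoli cells continue to divide.

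Total estimated counts ranged from 14694943 to 23912005 in the 6 libraries, and 3 counts, taken here as the floor of detection, corresponded to between 0.117 and 0.194 CPM (counts scaled to a common library size). The labelled cell type was checked against its markers. Foxl2, Fst and Adamts19 had counts in all 6 libraries, at 2.62, 35.2 and 4.73 CPM at E11.5 and 20.2, 35.5 and 30.3 CPM at E12.5 for Foxl2. The E11.5 libraries with the lowest Foxl2 were replicates 1 and 3, and the level in E11.5 replicate 2 lay within the range of E12.5. Sox9, the Sertoli cell factor, stood at 226, 78.6 and 74.5 CPM at E11.5 and 52.6, 58.3 and 75.3 CPM at E12.5, against a mean of 1706 ± 465 CPM (SD, n = 3) at E11.5 and 2018 ± 185 CPM at E12.5 in the XY cells. Amh, the Sertoli hormone, stayed under 10 CPM in every XX library.

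The 3 libraries labelled E11.5 did not resemble each other as closely as those labelled E12.5. Spearman correlations across genes, which are not independent replicates, were 0.955, 0.978 and 0.948 between pairs of E11.5 libraries and 0.994, 0.990 and 0.989 between pairs of E12.5 libraries. On the first principal component of the 6 libraries, which held 67.4% of the variance, the E11.5 replicates 1, 2 and 3 scored -50.3, 5.77 and -64.4. The 3 E12.5 libraries scored 33.9, 36.3 and 38.8. E11.5 replicate 2 thus stood apart from its group, on the side of E12.5. Its place was described after the values were seen, with genes called and changed at least 2-fold when it was left out. Among 2465 such genes, its level was nearer to the E12.5 mean than to the mean of the other E11.5 libraries in 75.8%. The same steps gave 7.93% of 164 genes for replicate 1 and 5.75% of 174 genes for replicate 3. Those sets were called in fits that kept replicate 2, so the 3 shares are not like measures. Each set was also picked by the contrast of the remaining E11.5 libraries with E12.5. That choice can by itself raise the share of the library left out. The label of replicate 2 was kept. Gene values are given with all 6 libraries, and list counts also without it where they move. The fit without it called 16.6% of all genes higher and 18.7% lower, and every such list count is to be read against these shares. Because replicate 2 was picked out after its place toward E12.5 was seen, calls gained without it are descriptions only.

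Libraries of E11.5 also held more RNA of immune and erythroid genes. The 12 immune markers summed to 319.6, 189 and 510.0 CPM at E11.5 and 77.0, 73.1 and 76.7 CPM at E12.5, and 11 of the 12 fell (12 without E11.5 replicate 2). The 12 measured erythroid markers, most of them globins and red cell membrane genes, summed to 13691, 4448 and 34521 CPM at E11.5 and 1424, 1832 and 806 CPM at E12.5, and 11 of these fell (12 without that library). Among E11.5 libraries, replicate 3 had the highest and replicate 2 the lowest sum of both lists, and neither list overlapped between stages. The 14 markers of stroma and interstitium summed to 1123, 634 and 3695 CPM at E11.5 and 711, 764 and 411 CPM at E12.5, which overlapped. The 11 germ cell markers summed to between 24.7 and 38.5 CPM and the 10 endothelial markers to between 19.991 and 51.3 CPM over the 6 libraries, and no gene of either list was called. In the fit without E11.5 replicate 2, 1 germ cell marker was higher and 2 were lower, and 3 endothelial markers were lower. No immune or measured erythroid marker was at 0 in all E12.5 libraries, while Sox10 of the Sertoli list and Lhx1 of the mesonephric list were. The part of these other cells in the results that follow was not tested, and in bulk RNA fewer cells of a type cannot be told apart from less RNA per cell.

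**Figure D1:**
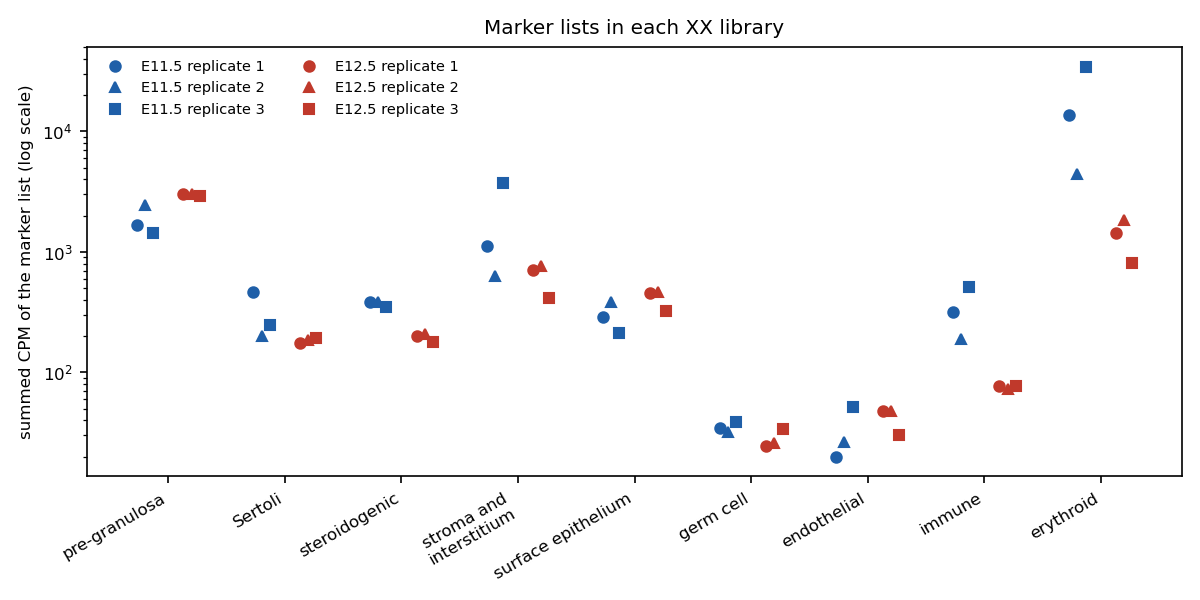
Summed CPM of 9 marker lists (log scale) in each XX library, with blue for E11.5, red for E12.5, and a circle, triangle and square for replicates 1, 2 and 3. The immune list lies between 189 and 510.0 at E11.5 and between 73.1 and 77.0 at E12.5, and the pre-granulosa list of E11.5 replicate 2 lies nearest to those of E12.5.

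The first question was which genes changed between the stages. Of 14709 genes with enough counts, 1176 were called at an adjusted p under 0.05 (edgeR quasi-likelihood test with Benjamini-Hochberg adjustment), which is 8% of the genes tested. Of these, 361 rose (2.45%) and 815 fell (5.54%), and 130 of the risen and 590 of the fallen genes changed at least 2-fold. Every list count with all 6 libraries is to be read against 2.45% higher and 5.54% lower. The libraries of the stages did not overlap for 1175 of the 1176 called genes, and they did not overlap for 34.6% of all genes tested. The median log2 change over all genes tested was -0.01. In the deposited TPM values (transcript abundance scaled by length and library size), tested as log2(TPM + 1), that median was 0.12 and the split turned, with 69.2% of calls higher at E12.5 against 30.7% in the counts. The called genes described here kept their direction where they could be tested on that scale.

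Without E11.5 replicate 2, 5340 genes (35.2% of 15155 tested) were called, 2510 higher (16.6%) and 2830 lower (18.7%), and all 1176 were among them. Without E11.5 replicate 1 or 3, 188 and 199 genes were called, and without an E12.5 library, 5, 3 and 3. Of the called genes named here, Lancl3 was called in every one of these 6 fits, Gap43 and Mir6236 were called in 5, and every other was lost in at least 3. Many, such as Lgr5, Kitl, Axin2, Dhrs3 and Tyms, were called in only 1 of the 6, the fit without E11.5 replicate 2. Of the 361 genes that rose, E11.5 replicate 2 was the highest E11.5 library in 69.0%, against 39.9% of all genes. Of the 815 that fell it was the lowest in 68.6%, against 42.2% of all genes, and replicate 3 was the highest in 58.8%, against 31.1%.

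**Figure D2:**
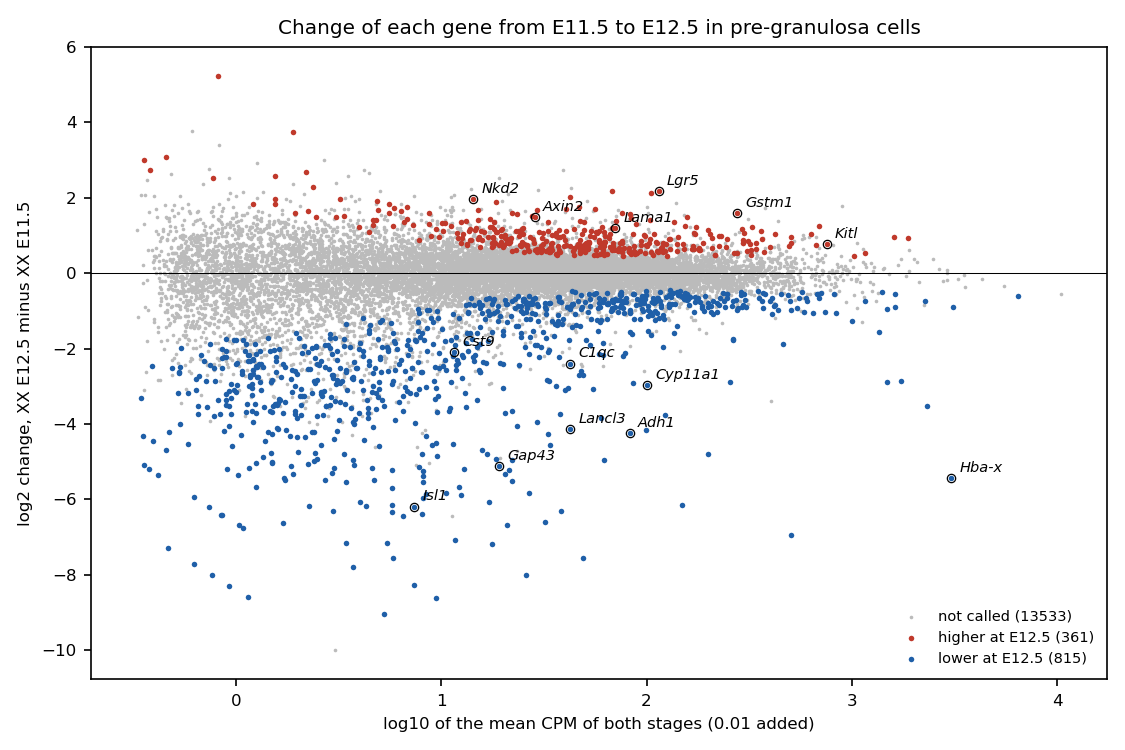
Each point is 1 gene, with its log2 change from XX E11.5 to XX E12.5 on the vertical axis and the log10 of its mean CPM on the horizontal axis; red marks the 361 genes called higher, blue the 815 called lower and grey the rest. The blue points reach further from 0 than the red ones.

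Pre-granulosa markers were the list nearest to the labelled identity. Of its 14 genes, Lgr5 and Kitl rose and none fell, and the list had a median log2 change of 0.70 against -0.01 over all genes. Lgr5, a receptor for R-spondins on chromosome 10 from 115450311 to 115587780 (positions are on mm10), stood at 26.8, 76.0 and 19.6 CPM at E11.5 and 223, 219 and 123 CPM at E12.5. All E12.5 libraries lay above all E11.5 libraries, and replicate 3 was the lowest at E12.5 (log2 change 2.17 ± 0.50 SE, adjusted p = 0.0437). Kitl, the KIT ligand that germ cells need for survival, on chromosome 10 from 100015630 to 100100416, stood at 604, 582 and 457 CPM at E11.5 and 1100.4, 933 and 853 CPM at E12.5. It rose by a log2 change of 0.78 ± 0.16 (SE, adjusted p = 0.0324), with little spread among E11.5 libraries. The mean of Kitl stayed near its E12.5 level later, at 903 ± 36.0 CPM at E13.5 and 1082 ± 17.2 CPM at E15.5.

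Fst, which encodes follistatin, stood at 135, 479 and 109 CPM at E11.5 and 561, 609 and 739 CPM at E12.5. Every E12.5 library was above every E11.5 library, but E11.5 replicate 2 lay far above the other E11.5 libraries, and the change did not pass the test (log2 change 1.38 ± 0.53 SE, adjusted p = 0.139). Adamts19, a secreted metalloprotease gene, stood at 4.22, 35.5 and 3.37 CPM at E11.5 and 75.4, 78.7 and 60.4 CPM at E12.5. It had the same order, with E11.5 replicate 2 between the other E11.5 libraries and E12.5 (log2 change 2.27 ± 0.81 SE, adjusted p = 0.121). The homeobox gene Irx3 stood at 15.3, 154 and 6.42 CPM at E11.5 and 181, 258 and 218 CPM at E12.5, again with replicate 2 close to E12.5 (log2 change 1.87 ± 0.99 SE, adjusted p = 0.256). Without that library, 8 of the 14 markers were higher at E12.5 and Msx1 was lower, in a fit that called 16.6% of all genes higher and 18.7% lower. The log2 changes were then 2.36 for Fst, 2.95 for Foxl2, 4.20 for Adamts19 and 4.30 for Irx3. That library was left out after its values were seen to lie toward E12.5 in these genes. Leaving it out enlarges such changes, so these values and counts are descriptions and no independent support. In the fit of all 24 libraries, which kept that library, 6 of 14 were higher and 1 lower, against 16.7% and 17.3% of all genes. Bmp2, a BMP ligand of the XX gonad, stood at 69.9, 67.4 and 35.4 CPM at E11.5 and 107, 123 and 96.8 CPM at E12.5, with no overlap (log2 change 0.89 ± 0.25 SE, adjusted p = 0.0715).

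Wnt4 and Rspo1, the ligand and the R-spondin that act early in ovary development, did not pass the test. Wnt4 stood at 58.0, 80.1 and 53.7 CPM at E11.5 and 65.5, 69.4 and 93.6 CPM at E12.5 (log2 change 0.22 ± 0.21 SE, adjusted p = 0.51). Rspo1 stood at 23.999, 49.0 and 26.1 CPM at E11.5 and 29.6, 38.1 and 36.6 CPM at E12.5 (log2 change 0.05 ± 0.28 SE, adjusted p = 0.934). Both overlapped between stages, and the sign of the Rspo1 difference depended on which library was left out. Runx1, a transcription factor of the same lineage, also overlapped, with means of 73.8 ± 5.90 to 82.8 ± 8.57 CPM.

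**Figure D3:**
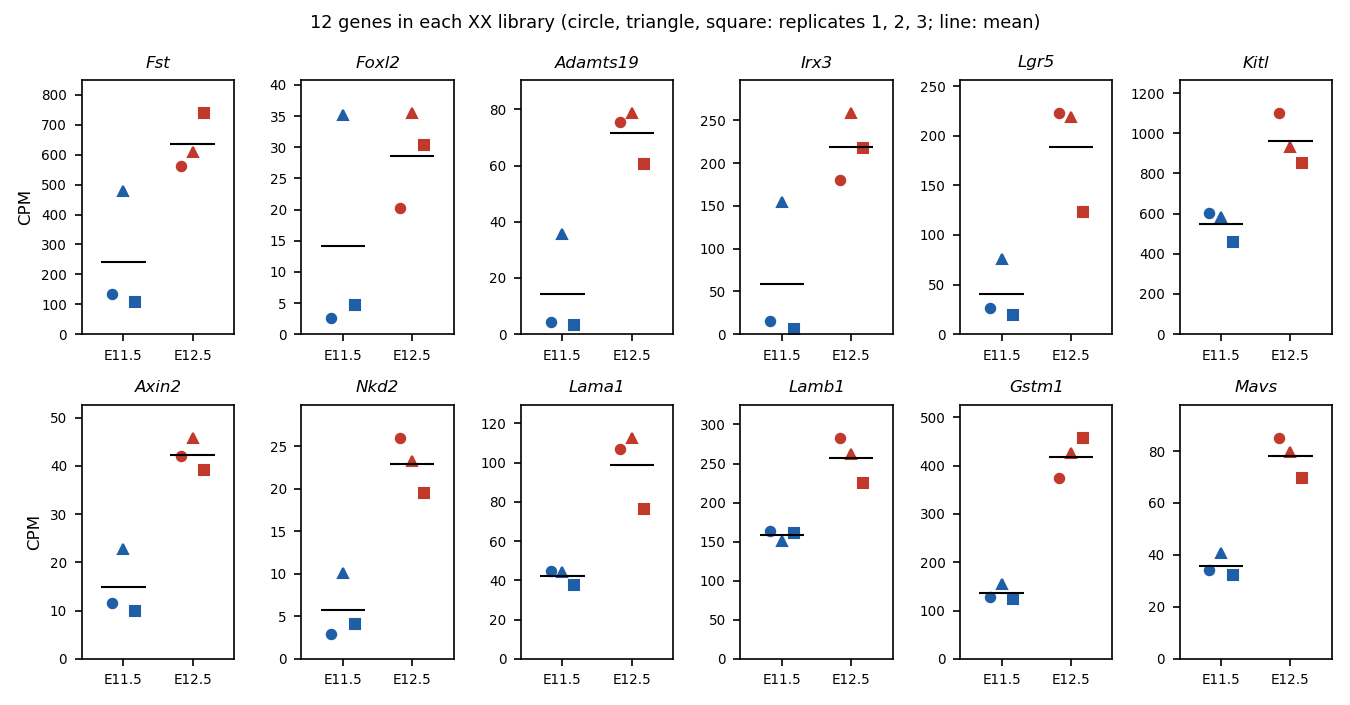
CPM of 12 genes in each XX library, 1 panel per gene with its own linear axis from 0; circles, triangles and squares are replicates 1, 2 and 3 and the line is the mean of 3 libraries. For Foxl2, Irx3, Fst and Adamts19 the E11.5 triangle lies above the other E11.5 libraries, while for Kitl, Lama1, Lamb1, Gstm1 and Mavs the 3 E11.5 libraries lie close together and under E12.5.

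Genes of the WNT and beta-catenin list moved in both directions. Of 34 tested, Lgr5, Axin2 and Nkd2 rose and Rspo3, Lgr4, Tcf7l2 and Dkk3 fell, with a list median of 0.06. The shares over all genes tested were 2.45% higher and 5.54% lower. Axin2, an inhibitor of beta-catenin that is itself a target of the pathway, on chromosome 11 from 108920349 to 108950783, stood at 11.7, 22.7 and 9.98 CPM at E11.5 and 42.0, 45.8 and 39.1 CPM at E12.5. Its E12.5 libraries were close together and all above E11.5 (log2 change 1.48 ± 0.30 SE, adjusted p = 0.0333). Nkd2, which binds Dishevelled and dampens WNT signals, stood at 2.94, 10.1 and 4.08 CPM at E11.5 and 26.0, 23.3 and 19.5 CPM at E12.5 and did not overlap (log2 change 1.97 ± 0.43 SE, adjusted p = 0.0387). Nkd1 and the target gene Sp5 did not pass the test with all libraries, at log2 changes of 1.39 (adjusted p = 0.0676) and 1.45 (adjusted p = 0.173). Without E11.5 replicate 2 both were called, as were Wnt6 and Rspo1, so that 7 of 34 were higher and 10 lower, in a fit that called 16.6% of all genes higher and 18.7% lower.

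Lgr4, a paralogue of Lgr5 and also a receptor for R-spondins, stood at 496, 502 and 448 CPM at E11.5 and 317, 254 and 209 CPM at E12.5. It fell while Lgr5 rose (log2 change -0.92 ± 0.16 SE, adjusted p = 0.0276). Tcf7l2, a transcription factor that binds beta-catenin, stood at 344, 248 and 407 CPM at E11.5 and 211, 162 and 189.6 CPM at E12.5 and fell (log2 change -0.86 ± 0.20 SE, adjusted p = 0.0449). Rspo3, another R-spondin, and Dkk3, of the Dickkopf family, fell from low levels, from 3.69 ± 2.47 to 0.439 ± 0.0779 CPM and from 11.4 ± 5.60 to 3.38 ± 0.911 CPM. The calls of Tcf7l2, Rspo3 and Dkk3 ended with log2(TPM + 1), and that of Rspo3 was kept with log2(TPM + 0.1).

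Of 30 tested genes of the BMP, activin and follistatin list, 2 rose, Id3 among them, and Chrd fell, with a list median of -0.23. Over all genes tested, 2.45% rose and 5.54% fell. Id3, a helix-loop-helix inhibitor that BMP signals induce, stood at 124, 198 and 126 CPM at E11.5 and 238, 293 and 377 CPM at E12.5 (log2 change 0.9957 ± 0.24 SE, adjusted p = 0.0491). Chrd, which encodes the antagonist chordin, was low throughout and fell from 2.18 ± 0.657 to 0.678 ± 0.0616 CPM. Id1 had a log2 change of 1.45 that did not pass the test (adjusted p = 0.0523). Without E11.5 replicate 2, 6 of 31 genes of the list were higher, Bmp2, Fst and Id1 among them, and 11 were lower. More genes were then lower than higher, in a fit that called 16.6% of all genes higher and 18.7% lower. The adjusted p of Id3 was near the threshold, and its call ended under DESeq2 size factors.

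Laminins, the network-forming proteins of basement membranes, gave 3 calls among 15 tested basement membrane genes, all higher at E12.5, with a list median of 0.08. Without E11.5 replicate 2 the same 3 were higher, while Lama5, another laminin chain, Hspg2 and Col4a6 were lower, and the median was -0.02. Lama1, the alpha chain of the embryonic laminin, on chromosome 17 from 67697259 to 67822647, stood at 44.6, 44.3 and 37.7 CPM at E11.5 and 107, 113 and 76.3 CPM at E12.5. Its E11.5 libraries differed little and all E12.5 libraries were higher (log2 change 1.19 ± 0.17 SE, adjusted p = 0.019). Lamb1 rose from 159 ± 6.49 to 257 ± 29.2 CPM and Lamb2 from 73.5 ± 9.51 to 112 ± 8.92 CPM. Both beta chains were lower again at later stages, at 175 ± 19.6 CPM at E13.5 and 129.8 ± 22.6 CPM at E15.5 for Lamb1 and 33.2 ± 3.39 CPM at E13.5 and 37.1 ± 7.82 CPM at E15.5 for Lamb2, as means with no test of that step. The call of Lamb2 ended on the TPM scale.

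Of 9 tested markers of steroidogenic cells, Star, Cyp11a1, Cyp21a1 and Mc2r fell and none rose, with a list median of -1.71. Cyp11a1, the side-chain cleavage enzyme that starts steroid synthesis, on chromosome 9 from 58006411 to 58027023, stood at 218, 95.1 and 220.2 CPM at E11.5 and 21.8, 22.6 and 24.8 CPM at E12.5. E11.5 replicate 2 was the lowest of its group but remained well above E12.5 (log2 change -2.97 ± 0.32 SE, adjusted p = 0.0144). Star, which carries cholesterol into mitochondria, stood at 45.3, 66.5 and 35.8 CPM at E11.5 and 17.1, 17.049 and 11.9 CPM at E12.5, and here replicate 2 was the highest (log2 change -1.71 ± 0.26 SE, adjusted p = 0.0195). Mc2r, the corticotropin receptor of the adrenal cortex, stood at 8.23, 9.31 and 11.473 CPM at E11.5 and 0.660, 0.500 and 1.41 CPM at E12.5 (log2 change -3.51 ± 0.44 SE, adjusted p = 0.0166).

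Cyp21a1, the adrenal 21-hydroxylase, fell from 5.85 ± 6.05 to 0.0648 ± 0.112 CPM, and its E11.5 level was highest in replicate 2, at 12.7 CPM. The E12.5 mean of Cyp21a1 lay under the floor, with 5 counts in all, so the size of its fall is uncertain. Cyp11b1, the adrenal 11-beta-hydroxylase, stood at 3.90, 38.7 and 1.30 CPM at E11.5 and 0.777, 0.500 and 0 CPM at E12.5 and was not called (log2 change -5.10 ± 1.45 SE, adjusted p = 0.0712); its E11.5 mean rested on replicate 2. Cyp21a1 and Cyp11b1 were thus highest in the library in which Cyp11a1 was lowest, whereas Mc2r was highest in replicate 3. Without replicate 2 the same 4 genes of this list were lower, and Hsd3b1 and Fdxr were called higher.

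**Figure D4:**
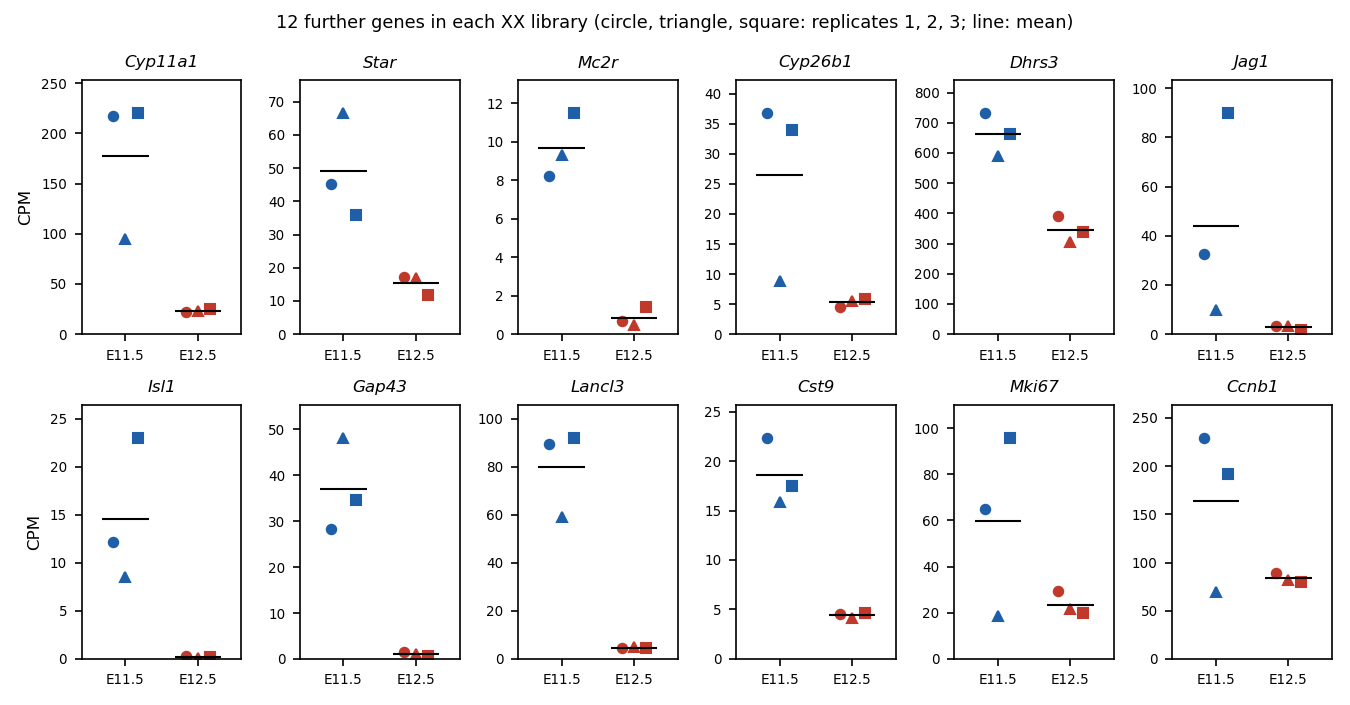
CPM of 12 further genes in each XX library, 1 panel per gene with its own linear axis from 0; circles, triangles and squares are replicates 1, 2 and 3 and the line is the mean of 3 libraries. Mki67 and Ccnb1, the last 2 panels, were not called and the other 10 genes fell; the E11.5 triangles of Mki67 and Ccnb1 lie under the E12.5 libraries.

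Retinoic acid has been proposed to drive germ cells of the fetal ovary into meiosis. Of 14 tested genes of its metabolism and binding, Cyp26b1, Crabp2, Dhrs3 and Rarb fell and none rose, with a list median of 0.09. Cyp26b1, the enzyme that degrades retinoic acid, stood at 36.8, 8.90 and 34.0 CPM at E11.5 and 4.47, 5.46 and 5.89 CPM at E12.5. No E12.5 library reached E11.5, although replicate 2 came near (log2 change -2.36 ± 0.50 SE, adjusted p = 0.0366). Dhrs3, which reduces retinaldehyde and thus limits retinoic acid, stood at 732, 590.3 and 663 CPM at E11.5 and 390.3, 306 and 337 CPM at E12.5. It fell with little spread at either stage (log2 change -0.97 ± 0.14 SE, adjusted p = 0.0195). The receptor gene Rarb fell from 8.25 ± 5.21 to 1.06 ± 0.523 CPM and the binding protein gene Crabp2 from 20.046 ± 3.21 to 11.479 ± 1.28 CPM. The retinoic acid-making enzymes Aldh1a1, Aldh1a2 and Aldh1a3 had higher means at E12.5 that did not pass the test, at 32.4 ± 17.8 to 75.7 ± 10.8, 39.8 ± 24.5 to 91.3 ± 15.3 and 9.45 ± 3.07 to 16.8 ± 2.95 CPM. All 3 were called without E11.5 replicate 2, with 6 genes of the list higher and 6 lower, against 16.6% and 18.7% of all genes. The calls of Cyp26b1 and Rarb ended on the TPM scale.

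Among 13 tested Sertoli markers, Cyp26b1 and Cst9 fell and none rose, with a list median of -1.03. Cst9, a cystatin gene of fetal Sertoli cells, stood at 22.3, 15.9 and 17.4 CPM at E11.5 and 4.58, 4.14 and 4.61 CPM at E12.5, with narrow groups that did not overlap (log2 change -2.09 ± 0.21 SE, adjusted p = 0.0125). The summed level of the Sertoli list was 465, 201 and 246 CPM at E11.5 and 175, 185 and 194 CPM at E12.5, so that E11.5 replicate 1 was the highest. Dmrt1, which later maintains the Sertoli fate, stood at 61.0, 29.991 and 56.1 CPM at E11.5 and 17.9, 21.2 and 32.8 CPM at E12.5 and overlapped (log2 change -1.06 ± 0.33 SE, adjusted p = 0.086). Dmrt1 and Sox10 were lower as well without E11.5 replicate 2, so that 4 of 14 Sertoli markers were.

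In the Notch list of 18 tested genes, Rfng rose and Notch2, Jag1, Dlk1, Mfng and Hey2 fell, with a list median of -0.71. Among all genes tested, 2.45% rose and 5.54% fell. Notch2, the receptor, stood at 156, 161 and 143 CPM at E11.5 and 113, 103 and 100.2 CPM at E12.5 (log2 change -0.57 ± 0.11 SE, adjusted p = 0.032). Its ligand Jag1 stood at 32.6, 9.81 and 89.8 CPM at E11.5 and 3.19, 3.14 and 1.85 CPM at E12.5. The E11.5 libraries of Jag1 followed the order of the erythroid and immune sums, highest in replicate 3 and lowest in replicate 2 (log2 change -4.04 ± 0.77 SE, adjusted p = 0.0305). Such an order was frequent, with replicate 3 highest in 58.8% and replicate 2 lowest in 68.6% of all genes that fell. Dlk1, a non-canonical ligand and imprinted gene, fell from 138 ± 38.5 to 64.3 ± 4.40 CPM, and the target gene Hey2 from 2.82 ± 3.02 to 0.144 ± 0.0736 CPM. Nrarp, a feedback inhibitor of Notch, stood at 1.82, 0.688 and 15.8 CPM at E11.5 and 0, 0 and 0 CPM at E12.5, so its E11.5 mean rested on replicate 3, and it was not called (adjusted p = 0.0548). With E11.5 replicate 2 left out, Rfng was higher and 9 genes of the list were lower, Nrarp among them, against 18.7% of all genes lower. The calls of Notch2 and Jag1 ended with log2(TPM + 1), that of Mfng with log2(TPM + 0.1) and that of Rfng under DESeq2 size factors.

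Hedgehog genes gave 2 calls among 9, and both fell. Shh, a ligand, stood at 20.4, 0.550 and 1.10 CPM at E11.5 and 0.0777, 0 and 0 CPM at E12.5, so its E11.5 mean rested on replicate 1 (log2 change -7.79 ± 1.90 SE, adjusted p = 0.0489). Its ratio of 259 has a counting interval of 71.8 to 2141, and it was not called by DESeq2. Gli1, a target and effector of the pathway, fell from 3.37 ± 2.60 to 0.379 ± 0.197 CPM. Of 17 FGF genes, Fgf2 rose from 0.947 ± 0.172 to 2.93 ± 0.789 CPM and none fell, although the list median was -0.83. For both lists, the shares over all genes were 2.45% higher and 5.54% lower. When E11.5 replicate 2 was left out, Fgf2 and Fgfr2 were higher and 6 genes were lower, which were Fgf10, Fgf18 and the feedback inhibitors Spry1, Spry4, Spred2 and Dusp6.

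Growth factors for germ cells and vessels divided in direction, with Kitl higher and Cxcl12, Angpt1 and Angpt2 lower among 12 tested, and a list median of -0.87. Kitl was higher and 8 of 13 were lower without E11.5 replicate 2, against 18.7% of all genes lower. Cxcl12, a chemokine that guides germ cells, stood at 93.7, 17.2 and 251 CPM at E11.5 and 2.84, 4.77 and 4.26 CPM at E12.5 (log2 change -4.96 ± 0.91 SE, adjusted p = 0.0295). The angiopoietin gene Angpt2 stood at 35.3, 10.8 and 82.3 CPM at E11.5 and 1.83, 1.5003 and 0.835 CPM at E12.5 (log2 change -4.97 ± 0.76 SE, adjusted p = 0.0205). Both genes and Angpt1 were highest in E11.5 replicate 3 and lowest in replicate 2, the order of the stromal sum as well. Among all fallen genes, replicate 3 was the highest in 58.8% and replicate 2 the lowest in 68.6%. Nr2f1, Nr2f2 and Maf, transcription factors of the interstitium, fell among 14 stroma markers (list median -0.81), and no collagen gene of that list was called. Leaving out E11.5 replicate 2 gave 6 lower, Col1a1 among them. Nr2f2 stood at 192, 94.9 and 166 CPM at E11.5 and 61.8, 55.1 and 42.2 CPM at E12.5 (log2 change -1.54 ± 0.27 SE, adjusted p = 0.0276). Col1a1 stood at 362, 100.2 and 1742 CPM at E11.5 and 87.1, 107 and 23.0 CPM at E12.5, a spread within E11.5 wider than that between stages (log2 change -3.38 ± 1.03 SE, adjusted p = 0.0841).

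Of 26 tested axon guidance genes, Slit3, Nrp2 and Efna5 fell and none rose, with a list median of -0.59. With all 6 libraries, 5.54% of all genes fell and 2.45% rose. Sema3a, Sema3f and Ephb1 were higher and 12 of 27 were lower without E11.5 replicate 2. That fit called 16.6% of all genes higher and 18.7% lower. Nrp2, a receptor for semaphorins, stood at 27.1, 11.6 and 20.5 CPM at E11.5 and 3.07, 3.77 and 4.26 CPM at E12.5 (log2 change -2.44 ± 0.34 SE, adjusted p = 0.0186). Efna5, an ephrin ligand, fell from 80.9 ± 43.6 to 12.7 ± 2.03 CPM.

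The calls of cell cycle genes depended on E11.5 replicate 2 and on which libraries were fitted. None of 17 mitosis genes was called with all 6 libraries (list median -0.86). All 17 were lower at E12.5 without that library, in a fit that called 18.7% of all genes lower. The library was left out after its values were seen, so that count is a description and no independent support. In the fit of all 24 libraries, which kept replicate 2, 9 of 17 were lower, against 17.3% of all genes. The mitosis list summed to 1371, 493 and 1258 CPM at E11.5 and 629, 589.8 and 527 CPM at E12.5, and the sum of replicate 2 was the lowest of all 6. Mki67, the proliferation marker, stood at 64.9, 18.4 and 95.7 CPM at E11.5 and 29.2, 21.5 and 19.8 CPM at E12.5 (log2 change -1.37 ± 0.51 SE, adjusted p = 0.132). Ccnb1, the mitotic cyclin, stood at 229, 69.8 and 192 CPM at E11.5 and 89.3, 82.1 and 79.4 CPM at E12.5 (log2 change -1.0027 ± 0.38 SE, adjusted p = 0.137). Both overlapped between stages only through replicate 2, and their log2 changes without it were -1.80 and -1.36. Leaving out the lowest E11.5 library enlarges such a fall, so these values only describe it.

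Other cell cycle lists gave few calls. Of 12 tested CDK inhibitors, D cyclins and pocket proteins, Ccnd1 fell, and of 18 replication genes Tyms fell, against 5.54% of all genes called lower. Without E11.5 replicate 2, 2 of the 12 were higher and 5 lower, and 1 of the 18 was higher and 7 lower. Ccnd1, the cyclin of G1 entry, stood at 178, 92.0 and 112 CPM at E11.5 and 67.3, 69.4 and 57.1 CPM at E12.5 (log2 change -1.01 ± 0.24 SE, adjusted p = 0.0482). Tyms, thymidylate synthase, stood at 143, 130.1 and 139.7 CPM at E11.5 and 96.5, 79.1 and 91.7 CPM at E12.5, with replicate 2 in keeping with the other E11.5 libraries (log2 change -0.66 ± 0.13 SE, adjusted p = 0.0305). Both calls ended on the TPM scale.

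**Figure D5:**
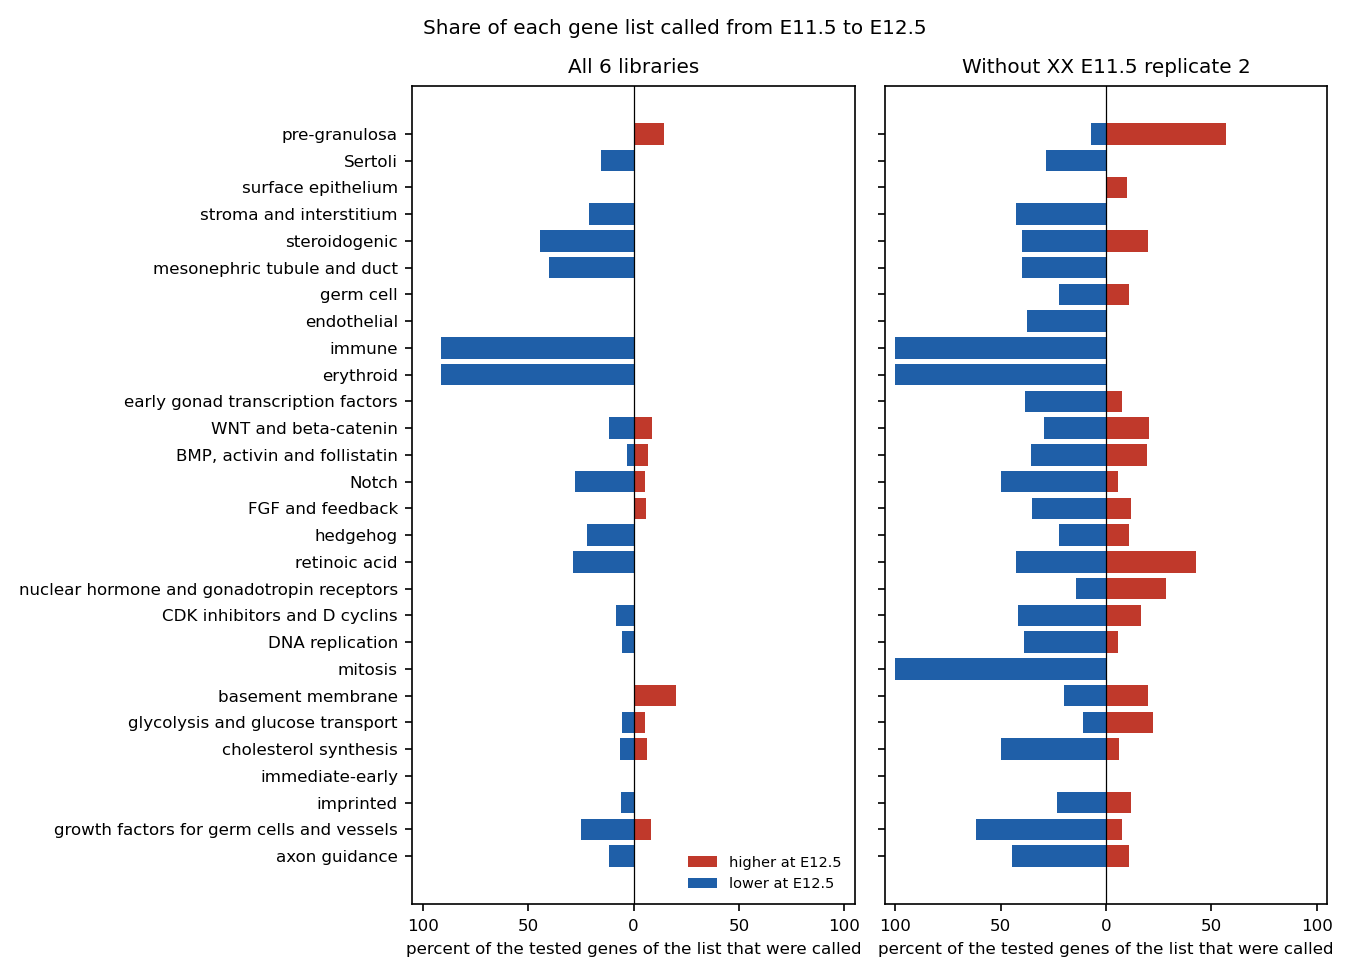
Share of the tested genes of each of 28 lists that were called higher (red, to the right) or lower (blue, to the left) at E12.5, on an axis in percent, with all 6 libraries on the left and without XX E11.5 replicate 2 on the right. The mitosis list goes from 0 to 17 of 17 genes lower, and the pre-granulosa list from 2 to 8 of 14 genes higher. Over all genes tested, the lower share goes from 5.54% to 18.7% and the higher share from 2.45% to 16.6%.

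The genes that rose most by rule, with at least 10 CPM in 1 stage and no overlap, were of varied function. Gstm6 and Gstm1, glutathione S-transferases of 1 gene cluster whose similar sequences make their counts uncertain, rose by log2 changes of 2.19 and 1.5998. Gstm1 stood at 128, 155 and 123 CPM at E11.5 and 374, 425 and 457 CPM at E12.5, with the smallest adjusted p of the risen genes (0.0108). Cav1, the caveolin of plasma membrane pits, stood at 10.049, 29.5 and 23.6 CPM at E11.5 and 71.9, 77.0 and 67.6 CPM at E12.5 (log2 change 1.75 ± 0.34 SE, adjusted p = 0.0316). Thbs2, a matrix thrombospondin, rose from 38.1 ± 19.1 to 172 ± 63.8 CPM. Ano1, a calcium-activated chloride channel, rose from 25.9 ± 13.7 to 85.9 ± 22.5 CPM, Lmo7 from 7.66 ± 4.31 to 29.3 ± 2.67 CPM and Myo1a, a class I myosin, from 18.5 ± 12.7 to 62.4 ± 8.85 CPM; the call of Myo1a ended under DESeq2 size factors. ND4L, a mitochondrial subunit of complex I whose gene overlaps its neighbour, rose from 16.5 ± 4.31 to 68.7 ± 9.85 CPM.

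Other genes among those with the smallest p had smaller and even changes. Mavs, the mitochondrial adaptor of RNA sensing, stood at 34.3, 40.6 and 32.3 CPM at E11.5 and 85.0, 79.6 and 69.6 CPM at E12.5 (log2 change 1.10 ± 0.14 SE, adjusted p = 0.0173). S1pr1, a receptor for sphingosine 1-phosphate, stood at 24.8, 22.4 and 21.6 CPM at E11.5 and 48.9, 46.5 and 52.8 CPM at E12.5 (log2 change 1.08 ± 0.13 SE, adjusted p = 0.0166). Atg14, a subunit of the autophagy lipid kinase complex, stood at 27.3, 24.7 and 25.7 CPM at E11.5 and 51.2, 53.6 and 52.5 CPM at E12.5 (log2 change 0.99 ± 0.12 SE, adjusted p = 0.0166). In these 3 genes the E11.5 libraries, replicate 2 included, were close together and all under E12.5. Gpc4, a heparan sulfate proteoglycan, Adgrl2, Bcar3, Dennd4c and the scaffold gene Magi2 rose in the same way, by log2 changes of 0.92, 0.92, 1.13, 0.95 and 1.68, and the call of Dennd4c ended on the TPM scale.

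Among the genes that fell, Lancl3 had the smallest p. Lancl3, of the lanthionine synthetase-like family, on chromosome X from 9199902 to 9268085, stood at 89.3, 58.9 and 92.0 CPM at E11.5 and 4.70, 4.91 and 4.39 CPM at E12.5. All E11.5 libraries were more than 10 times as high as any at E12.5 (log2 change -4.13 ± 0.22 SE, adjusted p = 0.00144). Its mean was higher again later, at 41.5 ± 3.26 CPM at E13.5 and 33.6 ± 2.63 CPM at E15.5.

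Gap43, a growth-cone protein of neurons, on chromosome 16 from 42248442 to 42340651, stood at 28.3, 48.2 and 34.6 CPM at E11.5 and 1.52, 1.05 and 0.659 CPM at E12.5. It was highest in E11.5 replicate 2, against the order of the erythroid and immune sums (log2 change -5.12 ± 0.35 SE, adjusted p = 0.00351). The other genes of neurons given here, Isl1, Nefl, Nefm, Crmp1, Ntrk2 and Ntrk3, followed that order, highest in replicate 3 and lowest in replicate 2. Over all 815 fallen genes, replicate 3 was the highest E11.5 library in 58.8% and replicate 2 the lowest in 68.6%. What sets this order was not tested. Isl1, a homeobox gene of motor and sensory neurons and other progenitors, stood at 12.2, 8.58 and 23.0 CPM at E11.5 and 0.272, 0.136 and 0.176 CPM at E12.5 (log2 change -6.19 ± 0.53 SE, adjusted p = 0.0105). The neurofilament genes Nefl and Nefm fell from 33.7 ± 20.2 to 0.505 ± 0.212 CPM and from 24.6 ± 12.7 to 0.413 ± 0.265 CPM. Crmp1, an axonal phosphoprotein gene, fell from 16.2 ± 4.29 to 2.27 ± 0.221 CPM. The neurotrophin receptor genes Ntrk2 and Ntrk3 fell to 4 and 5 counts in all at E12.5. These genes were named one by one through the rule, and no list of neuronal genes was tested.

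Adh1, an alcohol dehydrogenase that can oxidise retinol, stood at 110.0, 244 and 118 CPM at E11.5 and 9.13, 6.27 and 9.89 CPM at E12.5 and fell (log2 change -4.25 ± 0.37 SE, adjusted p = 0.0108). Mab21l2, Col9a1, Cnn1 and Actg2 were among the largest falls, and each was highest in E11.5 replicate 3. Col9a1, a cartilage collagen, stood at 8.18, 0.550 and 35.3 CPM at E11.5 and 0.0777, 0 and 0.0439 CPM at E12.5; Cnn1, the smooth muscle calponin, stood at 22.3, 0.734 and 82.8 CPM at E11.5 and 0.389, 0.318 and 0 CPM at E12.5. Mab21l2 fell from 10.5 ± 11.6 to 0.0130 ± 0.0224 CPM and the smooth muscle actin gene Actg2 from 23.1 ± 26.7 to 0.168 ± 0.108 CPM. The E12.5 means of Mab21l2 and Col9a1 lay under the floor, so the size of their falls is uncertain. The calls of Hemgn, Cnn1 and Actg2 ended with library quality weights, and that of Actg2 also with log2(TPM + 1). The erythroid genes Hemgn and Hbb-bh1 and the microRNA gene Mir6236 were also named by the rule, and Hbb-bh1, an embryonic globin, stood at 832, 47.8 and 2124 CPM at E11.5 and 10.6, 9.77 and 4.53 CPM at E12.5.

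Other lists gave few calls, to be read against 2.45% of all genes called higher and 5.54% called lower. No gene of the early gonad transcription factors was called among 12 tested (median -0.02). Without E11.5 replicate 2, where 18.7% of all genes were lower, Lhx9 was higher and 5 of 13 of these factors were lower. Among them Wt1 stood at 699, 567 and 561 CPM at E11.5 and 841, 792 and 732 CPM at E12.5 (log2 change 0.34 ± 0.13 SE, adjusted p = 0.146), and Nr5a1, the nuclear receptor of gonad formation, at 228, 222 and 208 CPM at E11.5 and 237, 265 and 213 CPM at E12.5 (log2 change 0.09 ± 0.12 SE, adjusted p = 0.674). Gata4 had means of 651 ± 121 to 631 ± 104 CPM and overlapped. Of 16 cholesterol synthesis genes, the sterol reductase gene Dhcr7 rose and Insig1, which holds back sterol synthesis, fell (median -0.28), while 8 were lower without E11.5 replicate 2; the call of Dhcr7 ended under DESeq2 size factors. Insig1 stood at 178, 80.4 and 113 CPM at E11.5 and 42.6, 46.6 and 39.4 CPM at E12.5 (log2 change -1.56 ± 0.27 SE, adjusted p = 0.0276). Of 18 glycolysis genes, Pfkm rose from 46.4 ± 7.64 to 76.3 ± 4.77 CPM and the glucose transporter gene Slc2a3 fell from 58.4 ± 51.3 to 8.26 ± 3.23 CPM. The size of that fall rested on E11.5 replicate 1, since the mean of the other E11.5 libraries was 28.8 CPM. Of the glycolysis genes, 4 were higher and 2 lower without E11.5 replicate 2. No gene was called among 10 surface epithelium markers, 7 hormone receptors or 18 immediate-early genes, and of 17 imprinted genes Dlk1 fell. Without E11.5 replicate 2, 1 surface epithelium marker was higher, 2 hormone receptors were higher and 1 lower, and 2 imprinted genes were higher and 4 lower. Gata3 and Calb1, of 5 tested mesonephric markers, fell from 34.3 ± 13.4 to 13.3 ± 3.58 CPM and from 151 ± 15.1 to 85.7 ± 16.5 CPM, and both calls ended on the TPM scale, as did that of Maf.

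The last question was whether this step differed from that of Sertoli cells over the same days. The step in XX cells minus the step in XY cells was tested in the 12 libraries, and 4686 of 15801 genes were called (29.7%), 2454 higher and 2232 lower. In log2(TPM + 1) the split was 71.5% higher against 52.4% in the counts, and the median over all genes was 0.25. Sex, reporter line and sort differ together between these cells and cannot be told apart. The difference was taken for 65 genes, which are the genes named by rule, the markers Fst, Foxl2 and Adamts19, the called members of 6 lists, and Hba-x and C1qc. Of these 44 were called and 21 were not. Some were named for having the largest called differences, and most others for a call in the XX step, which enters the difference. The count is thus no result to set against the 29.7% of all genes.

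Fst went from 241 ± 206 to 636 ± 92.2 CPM in XX cells, while XY cells went from 4.33 ± 1.52 to 0.208 ± 0.143 CPM (log2 difference 5.78 ± 0.95 SE, adjusted p = 0.00099). Axin2 rose in XX cells, and its XY means were 5.60 ± 0.390 to 2.06 ± 0.454 CPM (log2 difference 2.99 ± 0.40 SE, adjusted p = 0.000212). Cav1 had XY means of 26.1 ± 3.19 to 2.30 ± 0.797 CPM (log2 difference 5.32 ± 0.48 SE, adjusted p = 2.13e-05). These 3 genes parted between the sexes, since their XY means were lower at E12.5 than at E11.5. Lgr5 and Nkd2 were also called, although their XY means were higher at E12.5, at 189.5 ± 46.6 to 263 ± 7.30 CPM for Lgr5 and 111 ± 22.3 to 164 ± 24.4 CPM for Nkd2. Both differences lost their call in 9 of the 12 fits that left out 1 library.

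For Kitl no difference was called, with XY means of 373 ± 44.7 to 805 ± 49.3 CPM and a difference of -0.26 ± 0.19 (SE, adjusted p = 0.338). Gstm1 likewise had XY means of 1377 ± 181 to 4511 ± 439 CPM, with a difference of -0.04 ± 0.19 (adjusted p = 0.891). Cyp11a1, with XY means of 137 ± 19.9 to 9.69 ± 1.33 CPM, and Star, with 76.5 ± 6.01 to 14.7 ± 1.65 CPM, were not called either, at differences of 0.92 ± 0.37 and 0.74 ± 0.30 (adjusted p = 0.0798 and 0.0797). A p that misses the threshold does not show that the steps were alike. Cst9 and Cyp26b1 moved apart, with XY means of 166 ± 74.6 to 933 ± 80.5 CPM and 70.7 ± 17.043 to 289.5 ± 17.963 CPM (log2 difference -4.51 ± 0.39 SE, adjusted p = 1.8e-05 for Cst9). Dhrs3 was lower at E12.5 in both sexes, with XY means of 146 ± 6.33 to 20.9 ± 2.08 CPM, and the difference was called (log2 difference 1.91 ± 0.17 SE, adjusted p = 1.99e-05).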

How the data were processed

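RNA was measured in 24 libraries, of which 6 enter the main comparison. The deposited estimated counts and TPM values per gene were made by the authors from polyadenylated RNA amplified with a low-input kit, per the labels' protocols; the genome build was mm10 per the submitters' processing notes, and the aligner, counter and use of strand are not given in the sources used here. Of the count values, 17.5% were not whole, and all were rounded. XX E13.5 replicate 1, of which only the later means make use, has a title of E13.5 and a stage field of E12.5 and was kept at E13.5.

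The main test was edgeR 4.0.16 (R 4.3.3) with TMM scaling, filterByExpr and the robust quasi-likelihood test on the 6 libraries, which left 4 residual degrees of freedom. All adjusted p values are from edgeR, by Benjamini-Hochberg over all genes tested, with the threshold at 0.05. Only these libraries were fitted because the XX E11.5 libraries were known from earlier results of these data to vary more than others. The common biological coefficient of variation was 26.8% over the 6 libraries of both stages together, against 17.4% over all 24, which include them. The XX step minus the XY step was tested in 12 libraries. CPM values use TMM scaling over 24 libraries and are given per library in the order of replicates 1, 2 and 3 or as mean ± SD (n = 3). Alternatives were DESeq2 1.42.0, limma 3.58.1 on log2(TPM + 1) or log2(TPM + 0.1), voom quality weights, other filters and scalings, all 24 libraries, a replicate block and leaving out each library. On simulated counts for the main comparison, 42.9% of 2-fold and 74.7% of 4-fold changes were recovered, with 11 false calls. The simulation gave both stages the same spread for each gene. In the data the E11.5 libraries differed more than those of E12.5, so these shares need not hold for them.

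Named genes were the 10 with the largest change and the 10 with the smallest p in each direction, with at least 10 CPM in 1 stage and no overlap, and the 5 largest differences of steps in each direction; further genes came from 28 gene lists. A few genes named in these ways are not reported here. The comparison, the lists and the choice of the 6-library fit were made with earlier results of these data known, so counts over a list are descriptions. Which list members are described, the place of E11.5 replicate 2 and the genes whose difference from XY is given were chosen after their values were seen, and list counts without single libraries were added then. Gene positions are from GENCODE M21, on mm10. Hbb-bs and Ahsp of the erythroid list were not analysed here. Intervals of ratios (95%, Poisson) and floors cover counting error only.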

Additional observations from a re-analysis of the deposited data

Results flagged for a closer look

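The step from E11.5 to E12.5 differed between XX and XY cells by a test of the difference itself (edgeR quasi-likelihood test, adjusted p under 0.05) for 4686 of 15801 genes (29.7%). Among the 65 genes whose difference was taken, 44 were called, 29 higher and 15 lower in XX. Part of these genes were chosen for their called differences, so that count only describes them. The log2 differences given here are the XX step minus the XY step. Among genes that rose in XX cells, the differences above 0 were Cav1 (5.32), Magi2 (4.95), Thbs2 (4.51), Axin2 (2.99), Lmo7 (2.67), Ano1 (2.47), ND4L (2.16), Lgr5 (1.76), Nkd2 (1.45), Dennd4c (1.43), Atg14 (1.06), Adgrl2 (0.88), Lama1 (0.87), Gpc4 (0.64), Mavs (0.63) and Lamb1 (0.60). Those below 0 were S1pr1 (-1.21), Bcar3 (-0.73) and Lamb2 (-0.51), so these 3 genes gained less in XX than in XY cells.

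Among the other genes, the differences above 0 were Sprr2a2 (11.44), Sprr2d (10.95), Ddr2 (9.34), Calb1 (8.96), Ugt2b36 (8.89), Mc2r (8.71), Fst (5.78), Rarb (5.18), Gap43 (3.48), Dkk3 (3.26), Crabp2 (2.66), Crmp1 (2.64) and Dhrs3 (1.91). Of these, Sprr2a2, Sprr2d, Ddr2, Ugt2b36 and Mc2r had no count in any XY E12.5 library, so their fitted values depend on the prior count and are no measure of size. Calb1, Rarb and Gap43 had XY E12.5 means under the floor of 3 counts, at 0.0452, 0.0288 and 0.0299 CPM, so the size of their differences is uncertain too. The Sprr2 genes belong to a family of similar copies and their counts are uncertain. Sprr2d, a cornified-envelope gene, stood at 53.9, 48.1 and 52.1 CPM at E11.5 and 30.2, 38.3 and 58.2 CPM at E12.5 in XX cells. Differences below 0 were Rps12l1 (-13.09), Col9a1 (-11.25), Hcrtr1 (-10.22), Trim10 (-10.06), Hemgn (-9.20), Mab21l2 (-7.51), Mir6236 (-5.23), Cst9 (-4.51), Cyp26b1 (-4.32), Isl1 (-3.57), Adh1 (-2.79) and Lancl3 (-2.64). Hcrtr1 had no count in XX E12.5, and Rps12l1 had none in XY E11.5. Col9a1 and Mab21l2 had XX E12.5 means under the floor, at 0.0405 and 0.0130 CPM, as had Trim10 in XY E11.5, so the size of these differences is uncertain. Hcrtr1, an orexin receptor gene, had XY means of 3.09 ± 1.21 to 42.1 ± 1.70 CPM. Trim10 was at 17.2, 2.25 and 35.7 CPM at E11.5 and 0.505, 0.864 and 0.571 CPM at E12.5 in XX cells, with XY means of 0.0351 ± 0.0149 to 1.55 ± 0.564 CPM.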

How the results depend on the processing

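Of 1176 genes called between XX E11.5 and XX E12.5, the number was 744 with at least 10 counts in every library, 2684 with DESeq2, 59 with log2(TPM + 1) and no filter, 4727 with library quality weights (E11.5 replicate 2 had the lowest, 0.171), 720 with an absolute log2 change of at least 1 and 5505 with all 24 libraries fitted. It lay between 3 and 5340 over the fits that left out 1 library. Calls higher at E12.5 were 69.2% with log2(TPM + 1), 67.4% with log2(TPM + 0.1), 44.1% with no filter on TPM, 46.5% with quality weights, 49.1% with all libraries, 18.1% with the fold rule and 30.7% in the counts as reported. The replicate block gave 572 calls, of which 509 were shared; correlations of same-numbered libraries (0.06, 0.00 and -0.12) did not pair them. The cause of these moves was not tested. Of 86 called genes described, 82 kept their call with DESeq2 size factors, 85 with DESeq2, 61 with no filter, 60 with at least 10 counts, 60 with log2(TPM + 1), 62 with log2(TPM + 0.1), 19 with log2(TPM + 1) and no filter, 83 with quality weights, 67 with the fold rule, 54 with the block, 32 without E11.5 replicate 1, 35 without replicate 3 and 2 or 3 without an E12.5 library. Not all 86 passed the filters of 3 of these fits. Tested genes that lost their call were 8 with at least 10 counts, 17 with filtered log2(TPM + 1) and 15 with log2(TPM + 0.1). The remaining genes were not tested in those fits.

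The 4686 calls of the difference between the XX and the XY step lay between 3252 and 6599 in every alternative, with 71.5%, 73.7% and 69.6% higher in the 3 TPM fits. Among uncalled changes, leaving out 1 library moved Rspo1 between -0.14 and 0.45, Gata4 between -0.22 and 0.028 and Egr1 between -0.17 and 1.52. Of the called differences, Gap43 turned from 3.48 to -0.16 with log2(TPM + 1), with and without the filter. Uncalled differences turned too. With log2(TPM + 1), filtered or not, they were 0.39 for Myo1a, 0.20 for Gstm1, 1.42 for Ntrk2, 0.11 for Kitl, -0.066 for Rspo3 and -1.79 for C1qc. With log2(TPM + 0.1) they were 0.29 for Myo1a, 0.20 for Gstm1, 0.74 for Ntrk2, 0.11 for Kitl and -0.67 for C1qc. With quality weights they were 0.39 for Myo1a, -0.088 for Tcf7l2 and -0.64 for C1qc, and with all 24 libraries -0.021 for Tcf7l2. Over fits without 1 library the difference lay between -0.57 and 0.44 for Myo1a, -0.15 and 0.070 for Gstm1, -1.70 and 0.88 for Ntrk2, -0.15 and 0.19 for Tcf7l2, -0.12 and 0.86 for Gstm6, and -0.038 and 0.32 for Lgr4. A fitted difference of a gene with no count in a group is no measure of its size, and 3 libraries a group limit all p values.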

Other observations

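Genes that fell from E11.5 to E12.5 did not all stay low. Besides Lancl3, the mean of Adh1 was 73.4 ± 1.44 CPM at E13.5 and 23.0 ± 2.94 CPM at E15.5 in XX cells, against 157 ± 75.5 to 8.43 ± 1.91 CPM over the step described. Calb1, a calcium-binding protein gene, went on to 133 ± 6.48 CPM at E13.5 and 555 ± 37.7 CPM at E15.5, and Angpt2 to 7.18 ± 0.635 CPM at E13.5 and 31.6 ± 2.30 CPM at E15.5. Dhrs3 was at 479 ± 14.1 CPM at E13.5 and 859.6 ± 137 CPM at E15.5. By contrast, Cyp26b1 had lower means later, at 1.02 ± 0.495 CPM at E13.5 and 0.243 ± 0.198 CPM at E15.5. Among the genes that rose, Gstm6 was at 280.5 ± 12.501 CPM at E13.5 and 558 ± 26.6 CPM at E15.5, Thbs2 at 241 ± 23.2 CPM at E13.5 and 419 ± 80.4 CPM at E15.5 and Magi2 at 31.3 ± 3.58 CPM at E13.5 and 56.6 ± 1.94 CPM at E15.5. These later means were not tested here.

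Cyp11b1 and Irx3 were both high in E11.5 replicate 2 and low in the other E11.5 libraries, but Cyp11b1 was close to 0 at E12.5, at 0.777, 0.500 and 0 CPM, where Irx3 was high. The place of E11.5 replicate 2 near E12.5 therefore did not hold for every gene. The immediate-early genes, which respond to tissue dissociation, differed within stages, with the list at 9148, 5295 and 1605 CPM at E11.5 and 5682, 6565 and 9351 CPM at E12.5. Fos stood at 1049.7, 574 and 169 CPM at E11.5 and 700.2, 934 and 1454 CPM at E12.5, and the spread of this list over E11.5 libraries was wider than the distance between the stage means.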
